A study of Mus musculus with 5 samples.

Results

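MHC class II genes encode the proteins that display peptides to CD4 T cells. The 10 genes described here, *H2-Aa*, *H2-Ab1*, *H2-Eb1*, *H2-DMa*, *H2-DMb1*, *H2-DMb2*, *H2-Oa*, *H2-Ob*, *Cd74* and *Ciita*, were taken by name from the 28692 genes measured in single cells of mouse bone marrow with droplet libraries that count the 3′ ends of transcripts, and all 10 were found. The study followed the marrow microenvironment of a BCR-ABL1 pre-B acute lymphoblastic leukemia. 5 C57BL/6J mice, 8 weeks old and not irradiated, each received 1000 leukemia cells by vein, and 1 mouse was analysed at each of 5 times, on day 0 and then every 3 days up to day 12. The day 0 mouse had also been injected and was killed at once, so no library came from a mouse without leukemia cells. Marrow was flushed from femurs and tibias and pooled with cells freed from the crushed bones by collagenase. With 1 mouse per day there is no replicate, so days are compared as values, without a test, and a difference between days cannot be told apart from a difference between mice. All intervals below are 95% intervals that cover counting error only.

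The class II molecule is a pair of an alpha and a beta chain. *H2-Aa* and *H2-Ab1* encode the chains of H2-A, and *H2-Eb1* encodes the beta chain of H2-E, whose alpha chain is not made in C57BL/6 mice. *Cd74* encodes the invariant chain, which fills the groove of a new molecule and directs it to the endosome. There H2-DM, made of *H2-DMa* and *H2-DMb1* or *H2-DMb2*, removes the last piece of the invariant chain so that peptides can bind, and H2-O, made of *H2-Oa* and *H2-Ob*, restrains H2-DM. *Ciita* encodes the coactivator that turns the set on. Mature B cells, dendritic cells and macrophages are the cells best known for carrying these molecules, while developing B cells acquire them late.

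8 of the 10 genes lie within 224 kb of chromosome 17, from 34092340 to 34316674 (GRCm38, GENCODE vM21). *H2-Aa* (ENSMUSG00000036594) spans 34282744 to 34287823 and *H2-Ab1* (ENSMUSG00000073421) 34257689 to 34269419. *H2-Eb1* (ENSMUSG00000060586) spans 34305867 to 34316674. The loading genes *H2-DMa* (ENSMUSG00000037649, 34119541 to 34139101), *H2-DMb2* (ENSMUSG00000037548, 34143307 to 34151555) and *H2-DMb1* (ENSMUSG00000079547, 34153072 to 34160230) stand next to each other. *H2-Oa* (ENSMUSG00000024334) spans 34092340 to 34095234 and *H2-Ob* (ENSMUSG00000041538) 34238903 to 34254414. *Ciita* (ENSMUSG00000022504) lies on chromosome 16 from 10480059 to 10528418, and *Cd74* (ENSMUSG00000024610) lies on another chromosome.

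Class II promoters are known for an X box and a Y box, bound by the RFX complex and NF-Y, on which the *Ciita* product acts. RefSeq promoter sequences (GRCm38.p6, from 250 bases before to 50 bases after each start) were found for 7 of the 10 genes, and none for *H2-Ab1*, *Ciita* and *Cd74*. 2 letter patterns were searched on both strands, AACNNATG for part of the X box and TGATTGG for the Y box, both picked after the promoters had been read. 6 of the 7 genes held TGATTGG and 4 held both in this order, with 18 to 21 bases between them. The windows of 60 bases around the Y box are shown because they hold the letters TGATTGG that these 6 genes share. Matches are in capitals, on the strand of each gene, 5′ to 3′. They lie at chr17:34287859-34287918 (*H2-Aa*, minus strand), chr17:34305761-34305820 (*H2-Eb1*), chr17:34153083-34153142 (*H2-DMb1*), chr17:34145112-34145171 (*H2-DMb2*), chr17:34092289-34092348 (*H2-Oa*) and chr17:34238801-34238860 (*H2-Ob*), all but the first on the plus strand.
H2-Aa: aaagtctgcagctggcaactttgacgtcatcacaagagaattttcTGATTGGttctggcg
H2-Eb1: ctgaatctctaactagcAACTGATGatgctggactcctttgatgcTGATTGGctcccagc
H2-DMb1: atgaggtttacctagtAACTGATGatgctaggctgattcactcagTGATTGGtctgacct
H2-DMb2: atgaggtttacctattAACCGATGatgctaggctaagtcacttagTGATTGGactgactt
H2-Oa: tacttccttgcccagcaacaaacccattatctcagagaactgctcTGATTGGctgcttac
H2-Ob: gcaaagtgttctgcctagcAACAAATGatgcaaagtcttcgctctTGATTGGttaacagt

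By GENCODE vM21 the *H2-Aa*, *H2-Eb1* and *H2-Ob* windows lie just 5′ of the gene, the *H2-DMb2* window lies in an intron of a longer transcript, and the *H2-Oa* and *H2-DMb1* windows overlap an annotated exon. Of all 32851 promoters, 8.86% held AACNNATG and 7.82% held TGATTGG. Both in this order, with at most 40 bases between them, occurred in 19 promoters, which is 0.0578%. The *H2-DMb1* and *H2-DMb2* windows matched at 53 of 60 bases, and every other pair matched at 15 to 28 bases. The *H2-DMa* promoters, listed at 2 starts, held neither pattern, which says only that these letters are not in those windows.

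After barcodes with fewer than 500 UMIs or over 10% mitochondrial UMIs were left out, 4870 to 6944 cells per library remained, 29679 in all, with a median of 3143 to 4397 UMIs. Cells were clustered without the 10 genes and without 39 other genes of the pathway, and classes were named from fixed markers. Pairs of libraries shared 44 to 73 cell barcodes, where 43.6 to 68.9 would be shared by independent draws. The day 12 library stood apart, with 108 B-like and 49 pro/pre-B-like cells against 233 to 809 and 267 to 365 on the other days. RNA outside cells was read from barcodes with at most 100 UMIs. Its summed level of the 10 genes was 25.5, 21.4, 28.6 and 21.2 UMIs per 10000 on days 0 to 9 but 7.38 on day 12.

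Among the named classes, macrophage-like, B-like and conventional and plasmacytoid dendritic-like cells had the highest mean class II levels. The cells that stayed unnamed averaged 87.9, between both dendritic-like classes. The level is the summed UMIs of the 10 genes per 10000 UMIs of the class in a library, for libraries with at least 20 such cells. Each 3′ UMI counts 1 captured molecule whatever the length of the gene, so levels of different genes are on 1 scale, though capture may differ between genes. Macrophage-like cells, 22 to 28 per library, had levels of 577 on day 3, 331 on day 6 and 402 on day 9. B-like cells had 275 on day 0, 207 on day 3, 182 on day 6, 158 on day 9 and 252 on day 12. Conventional dendritic-like cells had 143, 124, 89.8, 102 and 42.4 in the same order of days. Plasmacytoid dendritic-like cells, which have little antigen-presenting function at rest, had 58.0, 69.6, 64.6, 58.3 and 54.6. The class values of macrophage-like and B-like cells did not overlap, nor did those of B-like cells and either dendritic-like class, while conventional dendritic-like cells of day 12 fell below every plasmacytoid value. The macrophage-like class joined a cluster c13.3, with 560.8 over all libraries, and a cluster c9.4, with 245.1 in 38 cells. The c9.4 value lies within the B-like range, so the higher macrophage-like level did not hold for both clusters. The order of B-like over conventional dendritic-like cells depended on the settings. The means were 207 and 251 with a mitochondrial limit of 3 median absolute deviations, and 215.9 and 215.7 at a clustering resolution of 1.2.

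**Figure D1:**
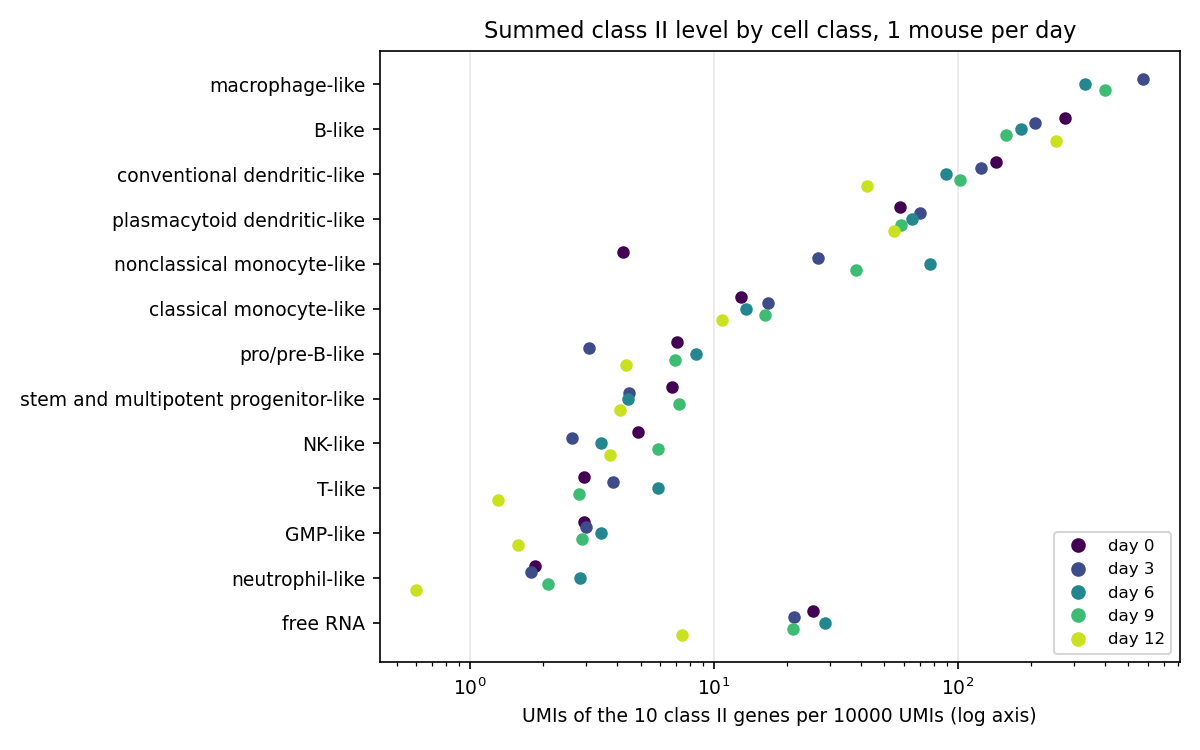
Summed level of the 10 genes (UMIs per 10000 UMIs, log axis) in each cell class, 1 point per library, coloured by day; free RNA is the same sum in barcodes with at most 100 UMIs. Macrophage-like points lie between 331 and 577, B-like points between 158 and 275 and neutrophil-like points between 0.601 and 2.84.

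Classical monocyte-like cells stood lower, while the summed level of nonclassical monocyte-like cells of day 6 exceeded every plasmacytoid value. Classical monocyte-like cells had 12.9, 16.6, 13.5, 16.1 and 10.7 on days 0 to 12. Nonclassical monocyte-like cells had 4.22, 26.7, 76.7 and 38.3 on days 0 to 9 and fewer than 20 cells on day 12. Pro/pre-B-like cells, named from markers of B cell precursors, had 7.03, 3.08, 8.48, 6.95 and 4.36. Averaged over libraries B-like cells were 35.9-fold higher (interval 34.7 to 37.2). With free RNA subtracted the pro/pre-B-like mean fell from 5.98 to 0.665 and the fold was 313. The subtracted estimate was too large for neutrophil-like cells, which held only 0.246 to 0.382 of the level it predicts. The fold of 313 may therefore be too high.

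Neutrophil-like cells, which are not known as class II cells at rest, had 1.84, 1.77, 2.84, 2.09 and 0.601. Their level was 7.24% to 9.93% of the free RNA level in each library, so it followed the free RNA over the 5 days. T-like cells had 2.93, 3.86, 5.89, 2.79 and 1.30, and mouse T cells do not make these molecules. Summed levels in this range were read as background. A level of 3.08 in pro/pre-B-like cells on day 3 was below the 3.86 of T-like cells of the same library.

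Counts per cell gave another order for the dendritic-like classes. Every cell with at least 1000 UMIs was thinned to 1000 UMIs, and the UMIs of the 10 genes in it were counted. The median B-like cell held 30, 23, 20, 19 and 31 such UMIs on days 0, 3, 6, 9 and 12, and 0.414% to 2.63% of B-like cells held none. The median plasmacytoid dendritic-like cell held 3, 5, 5, 4 and 2, and the median neutrophil-like cell held 0 in every library. The median conventional dendritic-like cell held 2, 1, 2 and 0.5 on days 3, 6, 9 and 12, below the plasmacytoid median of each library. 28.9% to 50% of these cells held none, while 19.2% to 26.4% held 20 or more. Among classical monocyte-like cells the median was 0 as well, but 1.54% to 3.46% of them held 20 or more, and the highest cell held 63 to 78. The median nonclassical monocyte-like cell of day 6 held 1, below the plasmacytoid median of that library. Of these cells 35.2% held none and 11.3% held 20 or more, so their high summed level came from a small part of them.

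*H2-Aa* had a UMI in 93.1%, 82.4%, 85.0%, 76.8% and 93.5% of B-like cells on days 0 to 12. In thinned cells the shares were 89.5%, 76.6%, 75.1%, 69.4% and 87.0%. Neutrophil-like cells were deeper, with medians of 3179 to 3672 UMIs where B-like medians ran from 1348 to 1909. Among them the unthinned shares were 2.60% to 15.3% and the thinned shares 0.725% to 4.55%. *Cd74* reached further into the background, with a UMI in 8.34% to 36.8% of neutrophil-like and 4.61% to 39.0% of T-like cells.

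*Cd74*, *H2-Aa*, *H2-Ab1* and *H2-Eb1* made up most of the signal in the classes with high levels. In B-like cells the mean over 5 libraries was 127 ± 29.5 (SD) UMIs per 10000 for *Cd74*, 26.4 ± 5.02 for *H2-Aa*, 24.97 ± 6.74 for *H2-Ab1* and 21.0 ± 4.62 for *H2-Eb1*. The SD here spans 5 days and mice. The loading genes were at 3.38 ± 0.694 for *H2-DMa* and 5.02 ± 1.11 for *H2-DMb2*, and *Ciita* was lowest with 0.349 ± 0.112.

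*Ciita* had a level of 0.476, 0.221, 0.276, 0.319 and 0.454 in B-like cells on days 0 to 12. It was at 0.136 on average in conventional dendritic-like, 0.124 in macrophage-like, 0.0463 in plasmacytoid dendritic-like and 0.00150 in neutrophil-like cells. The macrophage-like value rests on 4 UMIs, and its libraries, from 0 to 0.292, overlapped those of B-like cells. *Ciita* had a UMI in only 5.58% to 7.91% of B-like cells, so single cells at this depth mostly cannot show it.

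**Figure D2:**
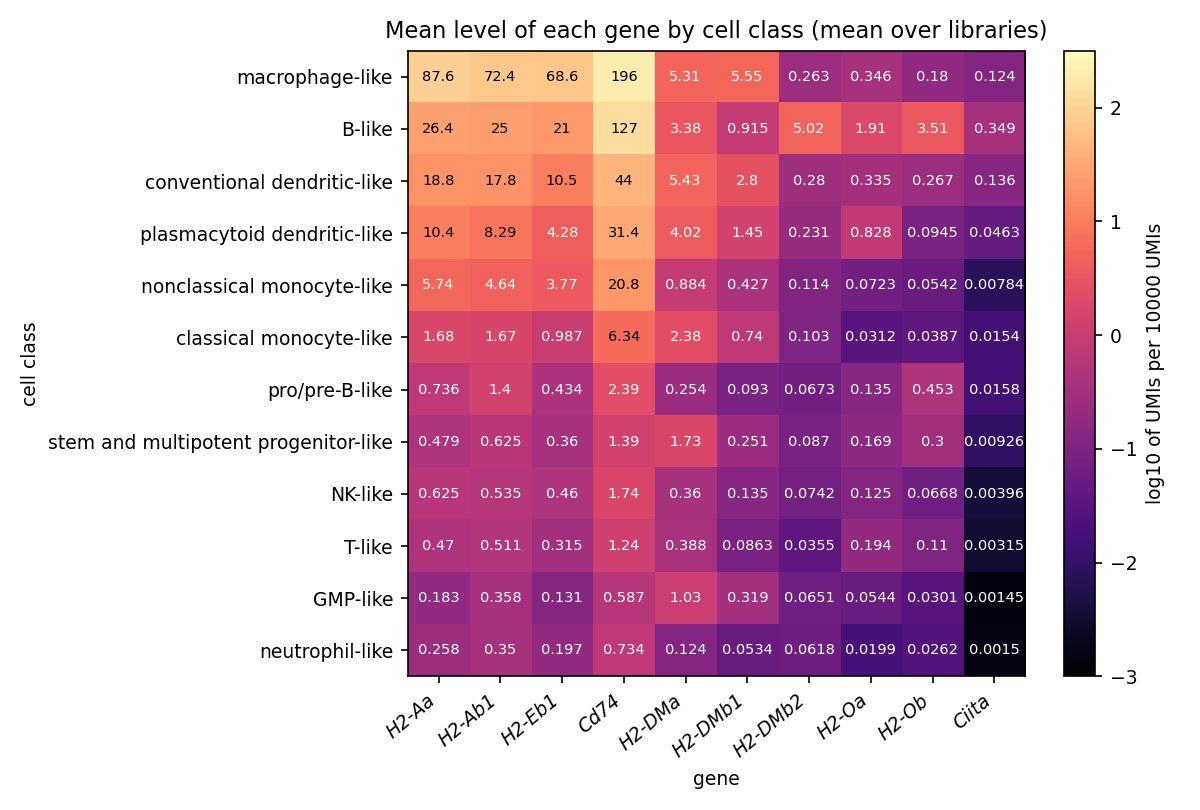
Mean level over libraries of each gene (columns) in each class (rows), printed as UMIs per 10000 UMIs and coloured by its log10. *H2-DMb2*, *H2-Oa* and *H2-Ob* have their highest values in B-like cells, whereas *H2-DMb1* is highest in macrophage-like cells at 5.55.

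*H2-DMa* was the most widely spread of the set. Its mean level was 5.43 in conventional dendritic-like, 5.31 in macrophage-like, 4.02 in plasmacytoid dendritic-like and 3.38 in B-like cells. It was also 2.38 in classical monocyte-like, 1.73 in stem and multipotent progenitor-like and 1.03 in GMP-like cells, against 0.124 in neutrophil-like cells. In classical monocyte-like cells the 5 libraries ranged from 2.21 to 2.64, above the 1.12 to 2.27 of *H2-Aa*, and both ranges overlapped. In GMP-like cells *H2-Aa* averaged 0.183, below *H2-DMa*. The mean of *H2-Aa* was 0.258 in neutrophil-like and 0.479 in stem and multipotent progenitor-like cells.

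The 2 beta chains of H2-DM were divided between cell types. *H2-DMb2* stood at 6.57, 4.75, 4.64, 3.59 and 5.55 in B-like cells on days 0 to 12, where *H2-DMb1* stood at 1.52, 0.797, 0.713, 0.638 and 0.909. In conventional dendritic-like cells the order was turned, with *H2-DMb1* at 3.77, 2.91, 2.23, 3.06 and 2.05 and *H2-DMb2* at 0.439, 0.234, 0.233, 0.417 and 0.0787. No library overlapped in either class.

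The ratio of *H2-DMb1* to *H2-DMb2* UMIs was 0.231, 0.168, 0.154, 0.178 and 0.164 in B-like cells. It was 12.4, 9.57, 7.35 and 26.0 in conventional dendritic-like cells on days 3 to 12, 3.98 to 9.00 in the plasmacytoid dendritic-like cells of 4 libraries and 5.43 to 10.6 in classical monocyte-like cells. GMP-like cells had 3.69 to 9.22 on days 0 to 9. In pro/pre-B-like cells it could be given for day 3 alone, at 3.29 (interval 1.78 to 6.47) from 46 and 14 UMIs, unlike B-like cells. Both genes were low in the pro/pre-B-like class, with means of 0.0930 for *H2-DMb1* and 0.0673 for *H2-DMb2*. Neutrophil-like cells had ratios of 0.748 to 1.06, between both patterns, beside 0.803 to 2.67 in free RNA. Because *H2-DMb1* and *H2-DMb2* are close copies, reads that match both could be lost, and whether this is uneven between them was not tested.

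The division held in single clusters. The ratio was 0.187 (interval 0.165 to 0.211) in the largest B-like cluster, c6.0, and 0.169 (0.124 to 0.228) in the B-like cluster c7.1. It was 9.81 (6.95 to 14.2) in the conventional dendritic-like cluster c9.1, 21.0 (11.5 to 42.7) in the macrophage-like cluster c13.3 and 23.8 (15.1 to 40.0) in the classical monocyte-like cluster c3.2. The clusters c13.3 and c3.2 also carried 5 and 4 markers of conventional dendritic cells. Both genes have nearly the same window around the Y box, as printed above.

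**Figure D3:**
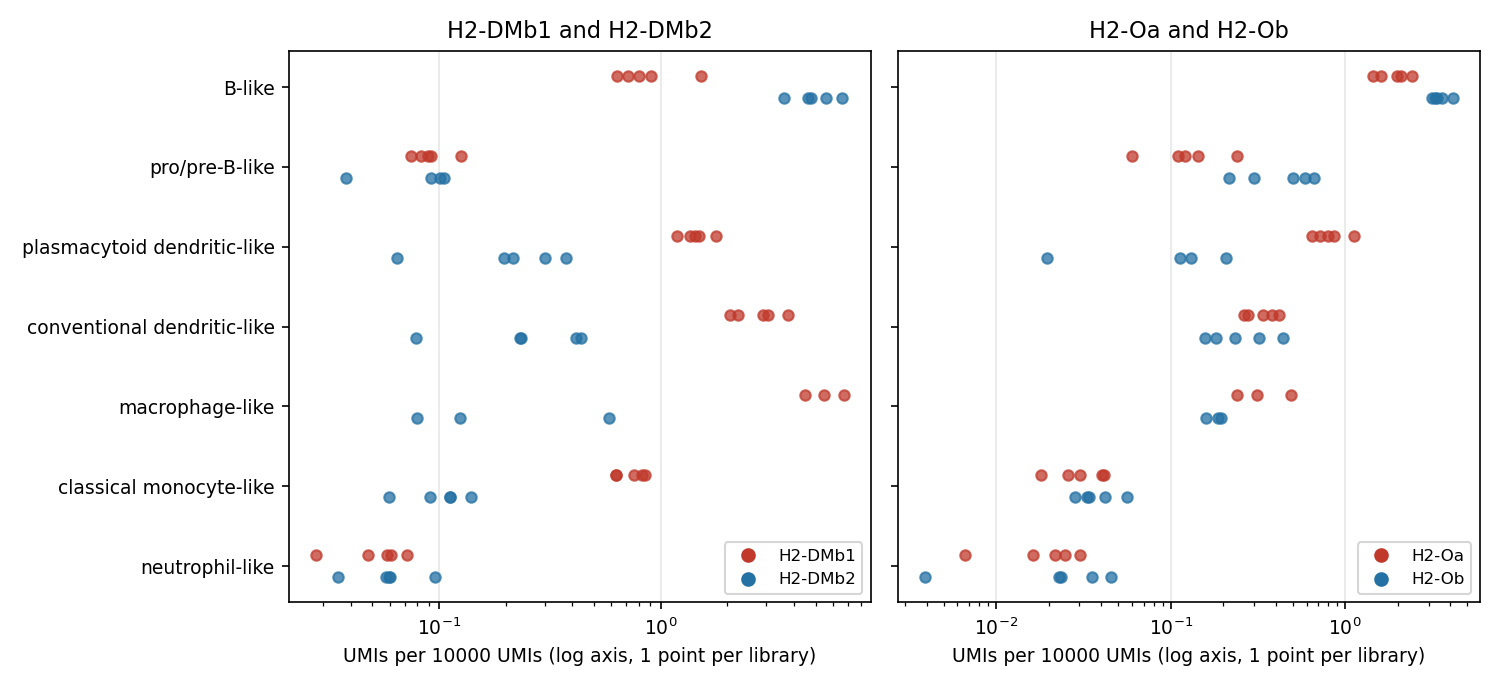
Level per library (UMIs per 10000 UMIs, log axis) of *H2-DMb1* and *H2-DMb2*, left, and of *H2-Oa* and *H2-Ob*, right, in 7 classes; libraries at 0 cannot be drawn on a log axis. *H2-DMb2* lies right of *H2-DMb1* in B-like cells and left of it in dendritic-like, macrophage-like and classical monocyte-like cells.

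Both genes of H2-O, the brake on H2-DM, had their highest class means in B-like cells. *H2-Ob* was at 4.16, 3.38, 3.28, 3.16 and 3.59 in B-like cells and *H2-Oa* at 2.42, 2.09, 1.45, 1.60 and 1.97. In plasmacytoid dendritic-like cells the alpha chain stood above the beta chain over the whole class. *H2-Oa* was at 0.712, 1.12, 0.860, 0.798 and 0.647 and *H2-Ob* at 0.131, 0.0197, 0.209, 0.113 and 0, the last with an upper bound of 0.239 from 28 cells. The largest plasmacytoid dendritic-like cluster, c12.0, held 236 *H2-Oa* UMIs and 11 *H2-Ob* UMIs in 368 cells. The next largest, c12.1 with 164 cells, had *H2-Oa* at 0.4975 and *H2-Ob* at 0.281, so both chains were measured there. The H2-O protein needs both chains. *H2-Ob* averaged 0.0945 in plasmacytoid dendritic-like cells, beside 0.110 in T-like and 0.0262 in neutrophil-like cells, whose summed levels were read as background.

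The ratio of H2-O to H2-DM UMIs (2 genes over 3) was 0.527, 0.605, 0.569, 0.701 and 0.558 in B-like cells. It was 0.115 to 0.187 in plasmacytoid dendritic-like, 0.0629 to 0.0774 in conventional dendritic-like and 0.0187 to 0.0250 in classical monocyte-like cells. These 4 classes did not overlap. T-like cells, whose summed level was read as background, had 0.553, 0.330 and 0.647 on days 0, 6 and 9, partly within the B-like range. Free RNA of these libraries had 0.364, 0.257 and 0.226, and the intervals overlapped on days 0 and 6 but not on day 9. *H2-Oa* averaged 0.194 in T-like and 0.01995 in neutrophil-like cells, so the reading as background may not hold for the T-like H2-O UMIs. Neutrophil-like cells had 0.0686 to 0.249, which covers the plasmacytoid dendritic-like range. Free RNA had 0.117 to 0.364, and pro/pre-B-like cells had 1.46, 0.878, 1.40 and 1.33 on days 0 to 9.

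*H2-Ob* was also measured in B precursors with few UMIs of the class II chains. Cluster c11.0, 214 pro/pre-B-like cells led by *Vpreb1*, *Igll1* and *Dntt*, which mark early B precursors, had *H2-Ob* at 1.52 and *H2-Oa* at 0.563, against 0.864 each for *Cd74* and *H2-Ab1* and 0.249 for *H2-Aa*. Its ratio of H2-O to H2-DM was 3.61 (interval 2.57 to 5.17). The highest such ratio in free RNA was 0.364, on day 0, and neutrophil-like cells had *H2-Ob* at 0.0262 on average. *H2-Ob* had a UMI in 19.9% to 24.7% of all pro/pre-B-like cells, where 0.167% to 2.11% of the neutrophil-like cells had one. In thinned cells these shares were 5.71% to 10.0% and 0.04998% to 0.759%. *H2-Ob* was not particular to B precursors, since 22.0% to 24.8% of stem and multipotent progenitor-like cells had a UMI of it. Their levels of 0.238 to 0.373 overlapped the 0.215 to 0.664 of pro/pre-B-like cells. In thinned cells their share was below the pro/pre-B-like share in every library.

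Over the B-lineage clusters the summed level ran from 2.14 to 311.5, and the share of *Cd74* in it was highest in clusters of middle level. The clusters are arranged here by their leading genes, from *Dntt* and *Igll1* to *Ighd*, and this order was not derived from a time course. The 4 clusters c11.0, c11.5, c11.4 and c11.1 had sums of 4.83, 2.96, 2.14 and 7.22. Cluster c11.2 had 10.6 and c7.0, with *Ebf1* and *Rag1* among its leading genes, had 13.9. The sum then went to 123 in c7.1, whose leading genes include *Ms4a1* and *Ly6d*, to 280.5 in c6.0, led by *Ighd* and *Fcmr*, and to 311.5 in c15.0, led by *Scd1* and *Ccr7*. The 28 cells of the plasma-like cluster c6.2 were back at 31.0. 4 other B-lineage clusters were left out of this arrangement. They are c11.3, found on day 3 alone, with 2.37, c7.2 with 13.1, c7.3 with 59.7 and c6.1 with 82.0. In c7.2 and c6.1 62.5% and 62.6% of cells had doublet scores of 0.25 or over.

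The ratio of *Cd74* UMIs to those of *H2-Aa*, *H2-Ab1* and *H2-Eb1* together did not follow the sum. It was 0.660 (interval 0.476 to 0.910) in c11.0, 0.623 (0.542 to 0.716) in c11.1 and 0.665 (0.575 to 0.769) in c11.2. It reached 2.37 (2.08 to 2.71) in c7.0 and 3.56 (3.42 to 3.71) in c7.1. In c6.0 it was 1.57 (1.54 to 1.59) and in c15.0 1.54 (1.49 to 1.58).

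The high *Cd74* share of c7.1 was present in every library with at least 20 of its cells, with ratios of 3.97, 3.08, 3.88 and 3.48 on days 0, 3, 6 and 9. The values of c6.0 were 1.66, 1.49, 1.53, 1.40 and 1.74 on days 0 to 12. The values of the 2 clusters did not overlap. Free RNA had 0.874 to 1.07, which is below both, and macrophage-like cells had 0.852 to 0.876. The plasma-like cluster had 4.17 (3.59 to 4.86) from 900 *Cd74* UMIs and 216 UMIs of the 3 chains, so *Cd74* exceeded the class II chains there as well. Doublet scores of 0.25 or over were found for 0.202% of c7.1 and 0.151% of c6.0 cells.

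**Figure D4:**
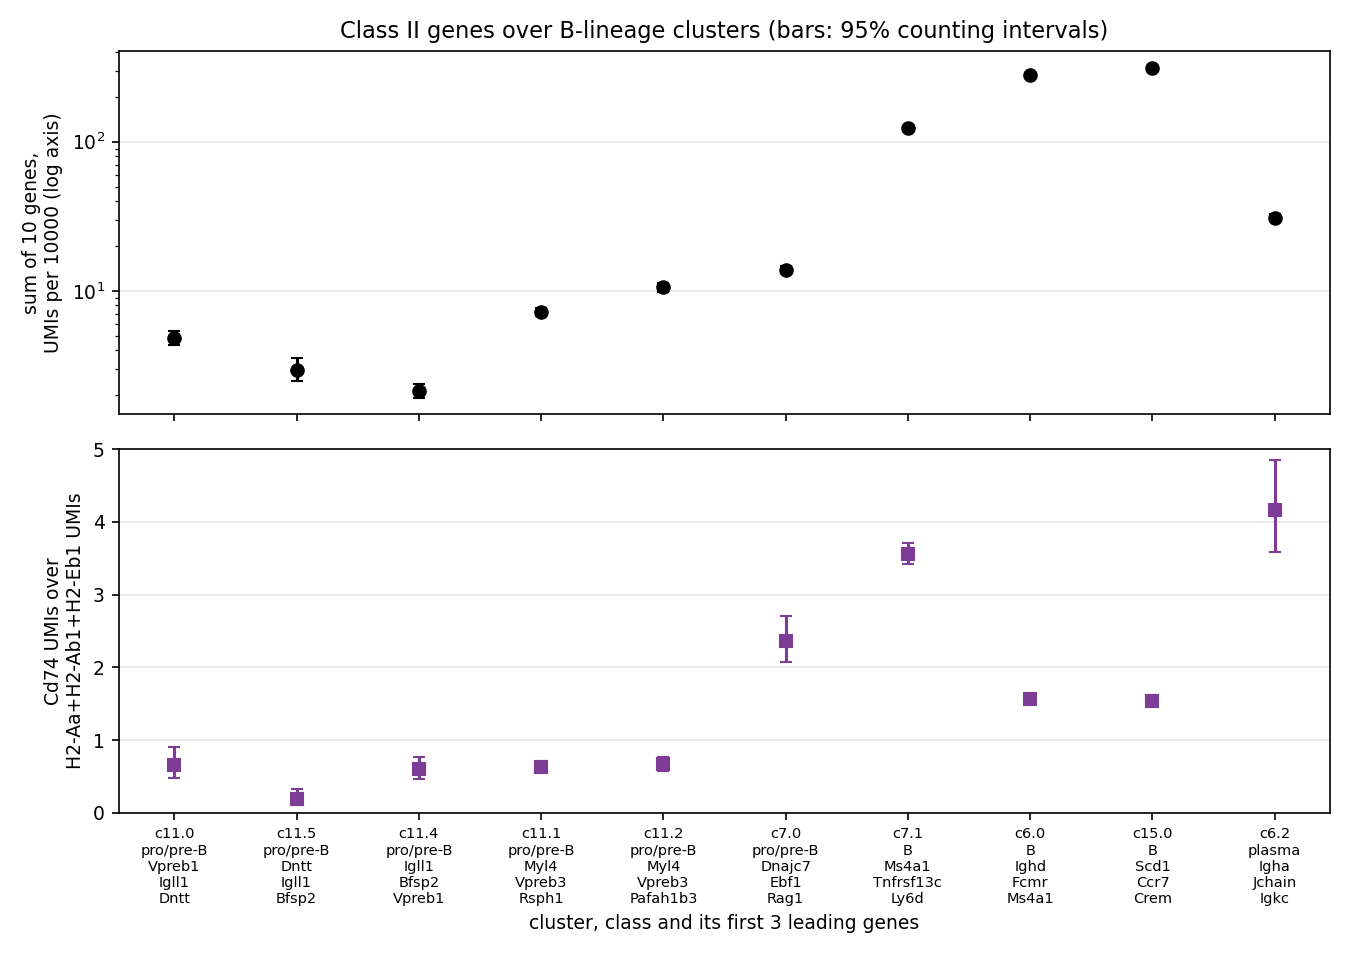
Top, sum of the 10 genes (UMIs per 10000 UMIs, log axis) and bottom, *Cd74* UMIs over those of *H2-Aa*, *H2-Ab1* and *H2-Eb1*, in 10 B-lineage clusters over all libraries; bars are 95% counting intervals. The sum runs from 2.14 to 311.5 before the plasma-like cluster, while the ratio is highest at 3.56 in c7.1 and at 4.17 in the plasma-like cluster.

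The myeloid cells with the highest class II levels were few. The highest cluster of all was c13.3, with 560.8 UMIs per 10000 in 48 cells. It was named macrophage-like from *C1qa*, *C1qb*, *C1qc*, *Axl*, *Mrc1* and *Adgre1*, but it also carried 5 markers of conventional dendritic cells and 4 of classical monocytes. Next was c9.2, 147 cells with 417, led by *Cd209a*, *Clec10a* and *Tmem176b*. It stayed unnamed because it carried 5 markers each of conventional dendritic cells and classical monocytes. The conventional dendritic-like level therefore rests on the clusters c9.1 with 149.6 and c10.4 with 55.3, the latter with the histone gene *Hist1h2ap* among its leading genes.

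The class mean of 100.3 depended on how cells were filtered and clustered, with values from 88.2 to 251 under the alternatives tried. In both c13.3 and c9.2 the 3 class II chains were high, with *H2-Aa* at 107.5 and 73.5, *H2-Ab1* at 96.0 and 67.1 and *H2-Eb1* at 82.9 and 54.0. *Ciita* was at 0.156 and 0.486.

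Plasmacytoid dendritic-like and monocyte-like cells were mixtures of high and low clusters. The plasmacytoid cluster c12.0 had 103.5, c12.2 had 67.4, c12.1 had 27.3 and c12.3, with the histone gene *Hist1h2ap* among its leading genes, had 12.4. *H2-DM* did not fall with the chains, since its ratio to the 3 chains was 0.158 (interval 0.148 to 0.168) in c12.0 but 0.835 (0.750 to 0.929) in c12.1 and 1.58 (1.31 to 1.92) in c12.3. Among classical monocyte-like clusters c3.2, with *Apoe*, *Tmem176b* and *Cd209a* among its leading genes, had 78.7, while c3.0, led by *Fn1* and *S100a4*, had 6.92. Besides its classical monocyte markers c3.2 carried 4 markers of conventional dendritic cells and 3 of nonclassical monocytes. The H2-DM ratio was 0.223 (0.210 to 0.237) in c3.2 and 3.23 (2.94 to 3.55) in c3.0.

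B-like cells made up a varying part of the class II RNA of the marrow. They held 57.7% of all UMIs of the 10 genes in cells on day 0, then 20.5%, 38.4%, 29.4% and 28.5% on days 3 to 12, being 12.9%, 4.78%, 10.5%, 7.75% and 1.94% of the cells. Classical monocyte-like cells held 9.32%, 13.5%, 10.2%, 14.1% and 23.8%. The unnamed cluster c9.2 was 0.320% to 0.646% of cells and held 9.59%, 12.7%, 13.2%, 11.9% and 21.8%. Neutrophil-like cells, 48.6% to 75.2% of cells, held 4.06% to 6.19%.

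Over the days, B-like cells had lower levels on days 3, 6 and 9 than on day 0, and the makeup of the class differed between days as well. The median mitochondrial share of B-like cells was 3.17%, 4.64%, 5.02%, 5.43% and 4.18% on days 0 to 12, highest where the sum was lowest, and its part in the result was not tested. Against day 0 the sum was at 0.752 (interval 0.737 to 0.767), 0.660 (0.650 to 0.670), 0.572 (0.563 to 0.582) and 0.914 (0.887 to 0.941) on days 3, 6, 9 and 12. A gene is called here when it is past 1.5-fold in either direction with at least 50 UMIs in both libraries together. On day 9 8 of 10 genes were called, all lower, beside 16.8% of all 4802 genes tested. On day 3 2 of 10 were lower, beside 17.9% of all genes, on day 6 5 of 10, beside 14.5%, and on day 12 1 of 10, beside 23.3%. None was higher. The median log2 fold of the 10 genes was -0.40, -0.59, -0.77 and -0.20 on days 3 to 12, where the median of all genes tested was 0.0084, -0.03, -0.0064 and -0.07. In cells thinned to 1000 UMIs the sum was at 0.805, 0.747, 0.656 and 0.993 of day 0.

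The cluster c7.1, with the lower sum, was 10.5% of B-like cells on day 0, then 30.9%, 23.7% and 33.1% on days 3 to 9 and 9.26% on day 12. Within c6.0 the sums were 311.5, 270.2, 261.5, 243.9 and 316.6, so day 9 was at 0.783 (0.765 to 0.801) of day 0 and day 12 at 1.02 (0.981 to 1.05). Within c7.1 days 0, 3, 6 and 9 had 142, 141, 114 and 115, and within c15.0 they had 329, 301.5, 297 and 271. How much of the class difference goes with the makeup was not tested.

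Counts of called genes were small within clusters. In c6.0 2, 1, 1 and 0 of 10 genes were lower on days 3, 6, 9 and 12, beside 17.8%, 11.5%, 16.4% and 24.5% of all genes. In c7.1 8 genes could be tested, and 1, 0 and 1 were higher on days 3, 6 and 9, beside 15.3%, 14.8% and 13.7%. The day 9 sum was 0.783 of day 0 within c6.0 and 0.809 within c7.1, against 0.572 over the whole class. *H2-DMb1* was the member most below day 0 within c6.0 on days 6 and 9, at 0.502 and 0.599, and *Ciita* on day 3, at 0.592.

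**Figure D5:**
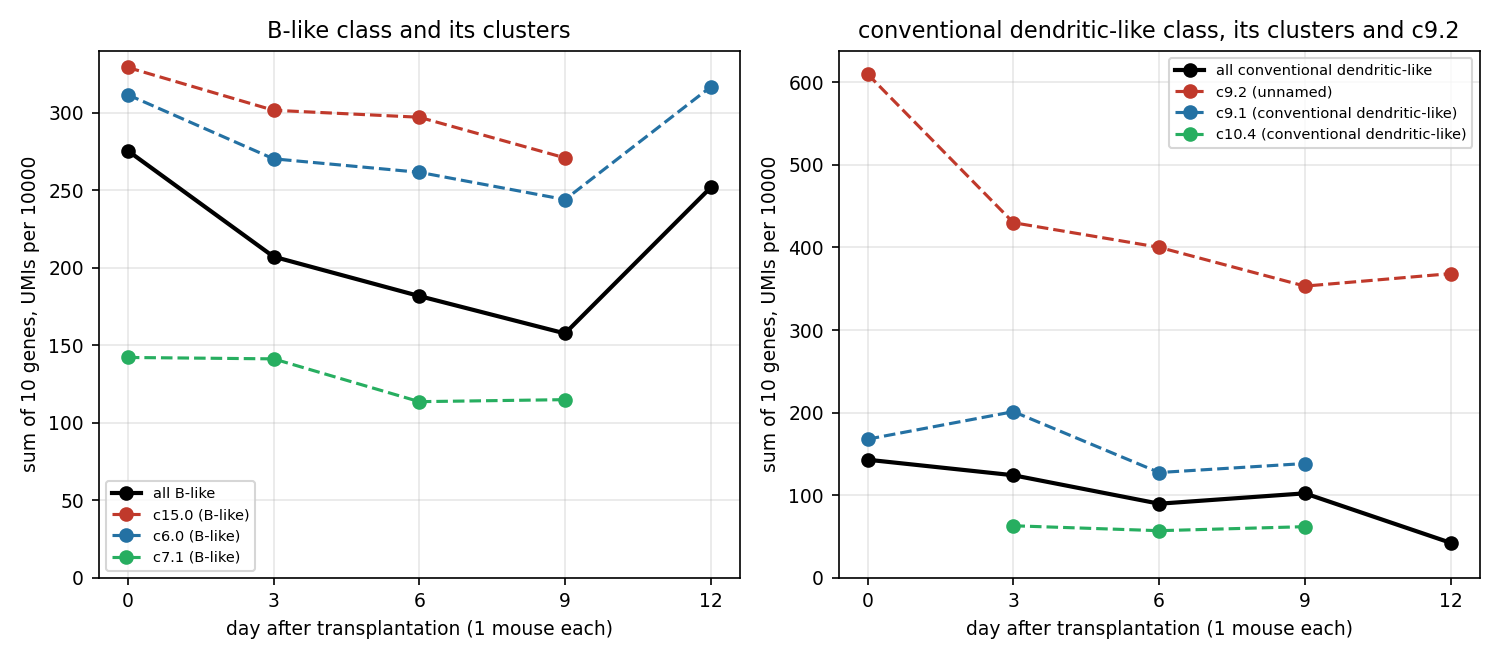
Sum of the 10 genes (UMIs per 10000 UMIs) by day, 1 mouse per day, for the B-like class, left, and the conventional dendritic-like class, right (black), with single clusters of at least 20 cells and the unnamed c9.2 (dashed). The B-like class falls to 158 on day 9, while cluster c6.0 falls from 311.5 to 243.9 and is at 316.6 on day 12.

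Conventional dendritic-like cells had sums at 0.869, 0.628, 0.715 and 0.297 of day 0, from 24 cells on day 0 and 30 to 86 later. 6 genes could be tested, and 0, 5, 1 and 5 of them were lower on days 3, 6, 9 and 12, beside 23.6%, 23.8%, 24.9% and 20.5% of all genes. The median log2 fold of these genes was -0.30, -0.67, -0.37 and -1.79, against -0.02, -0.01, -0.02 and 0.04 over all genes. Here too the makeup moved. The low cluster c10.4 was 2 of 24 cells on day 0 and 16 of 30 on day 12. Within c9.1 the sums were 168, 201, 127.5 and 138 on days 0 to 9, with 14 cells on day 12. In the unnamed cluster c9.2 day 0 was the highest, with 609.8 in 20 cells, against 430.0, 400.2, 353 and 368 later.

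Pro/pre-B-like cells had sums at 0.437, 1.21, 0.989 and 0.620 of day 0. On day 3 6 of 7 genes were lower, beside 34.2% of all genes, and on day 12 3 of 5, beside 22.8%. On day 6 and day 9 none of 6 was called, beside 14.6% and 14.9%. The day 3 library held cluster c11.3, 127 cells with *Cdkn2a* and *Tmem119* among their leading genes that were found on no other day, with a sum of 2.37. Without it the day 3 fold was 0.698, and within c7.0 day 3 was at 0.605 (0.476 to 0.764).

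Plasmacytoid dendritic-like cells were the most even class over the days, with sums at 1.2, 1.11, 1.01 and 0.940 of day 0. Of 7, 8, 7 and 6 genes tested, only *H2-Oa* on day 3 was called, at 1.57, beside 15.9%, 17.3%, 18.6% and 18% of all genes on days 3 to 12.

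Classical monocyte-like cells had sums at 1.29, 1.05, 1.26 and 0.836 of day 0. In thinned cells the sums were at 1.59, 0.983, 1.38 and 0.776 of day 0, so day 6 was then slightly below it. *H2-Aa* at 1.58 and *H2-Eb1* at 1.54 were called on day 3, *H2-Aa* at 1.71 on day 9 and *H2-DMb2* at 0.532 on day 12, of 7 or 8 genes, beside 13.8%, 13.9%, 16.1% and 11.6% of all genes on days 3 to 12. In the high cluster c3.2 day 0 was again the highest, with 122 against 81.4, 55.5, 91.8 and 75.5. In c3.0 *H2-Aa* was at 2.78, 2.26 and 2.46 of day 0 on days 3, 6 and 9, at a sum of 5.71 on day 0 and 7.42, 7.03 and 7.31 later. The class was made of different clusters on the days compared. c3.2 was 4.62% of it on day 0 and 13.9%, 14%, 11.5% and 8.72% later. c3.0 was 10.7%, 36.2%, 36.7%, 36.4% and 15.7% on days 0 to 12. c3.1, with a sum of 8.64, was 340 of 845 cells on day 0 and 162 of 585 on day 12, but 4, 2 and 8 cells on days 3, 6 and 9. The part of this makeup in the class folds was not tested.

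Among the other genes of the pathway, 39 were measured. Processing enzymes differed between classes. *Ctss*, the cathepsin that trims the invariant chain, averaged 12.2 in macrophage-like, 12.0 in classical monocyte-like, 6.44 in plasmacytoid dendritic-like, 4.23 in conventional dendritic-like and 3.64 in B-like cells, against 0.340 in neutrophil-like cells. *Ctsl*, another cathepsin, averaged 7.16 in plasmacytoid dendritic-like cells, 1.35 in macrophage-like cells and less in every other class. *Ifi30*, a thiol reductase of the endosome, was 7.18 in macrophage-like and 2.95 in B-like cells.

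*Irf8*, a transcription factor of dendritic cells, was 22.2 in plasmacytoid and 8.92 in conventional dendritic-like cells, and *Pax5*, the B cell factor, was 1.94 in B-like and 1.31 in pro/pre-B-like cells. The RFX subunits *Rfx5*, *Rfxank* and *Rfxap* were low in B-like cells at 0.121, 0.0915 and 0.147. Their values in pro/pre-B-like cells were 0.0739, 0.0816 and 0.269, beside *Ciita* at 0.349 in B-like and 0.0158 in pro/pre-B-like cells. *Cd83*, which keeps class II at the surface, was 6.53 in macrophage-like and 1.14 in B-like cells. The class II receptors *Cd4* and *Lag3* were highest in plasmacytoid dendritic-like cells, at 0.742 and 1.42. *H2-Eb2*, a neighbour of *H2-Eb1*, was at 0.198 in B-like and 0.145 in macrophage-like cells.

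In B-like cells the pathway list had 4 of 28, 1 of 31, 3 of 31 and 4 of 27 genes higher and 3, 3, 3 and 4 lower on days 3, 6, 9 and 12, to be read beside the shares of all genes given above. *Cd86*, a costimulatory ligand, was at 0.787 on day 0 and 0.407, 0.336, 0.176 and 0.202 later. *March1*, which marks class II for removal from the surface, was at 0.787 and 0.373, 0.479, 0.352 and 0.606. In pro/pre-B-like cells 14 of 26 genes were lower on day 3, where 1546 of all 6750 genes were, and 9 of 22 on day 12, where 614 of all 3565 were. On days 6 and 9 none of 26 was called.

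Likeness was measured as Pearson's correlation, across genes' levels in 58 groups of 1 class in 1 library, on the log2(UMIs per 10000 + 0.1) scale. The groups share libraries and free RNA, so the values are descriptions. Against the mean of the other 9 genes, *H2-Ab1* had 0.970, *Cd74* 0.965, *H2-Eb1* 0.964 and *H2-Aa* 0.960. *Ciita* had 0.835, *H2-DMb1* 0.826, *H2-DMa* 0.786, *H2-Oa* 0.774, *H2-DMb2* 0.734 and *H2-Ob* 0.578. The 10 other genes most like the mean of the set were *Trim25* with 0.843, *Fgd2*, *Cd180*, *Ero1lb*, *Rel*, *A530040E14Rik*, *Mif4gd*, *AC125149.3*, *Slc15a4* and *Pold4*, the last with 0.782. *Cd180*, a surface protein of B cells and myeloid cells, was at 1.33 in plasmacytoid dendritic-like and 0.916 in B-like cells, and *Rel*, an NF-kB subunit, was at 3.46 in macrophage-like and 1.45 in B-like cells.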

How the data were processed

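The submitters' notes name Cell Ranger and the build mm10. The authors deposited raw UMI counts per gene and barcode, unfiltered and not normalized, for 5 libraries of 33425695 to 43554233 UMIs. Barcodes with at least 500 UMIs and at most 10% mitochondrial UMIs were kept as cells. Each was scaled to 10000, and 1000 variable genes, without the 10 class II genes, the pathway list and mitochondrial genes, gave 20 components, 20 neighbours and Leiden clusters at resolution 0.6, the latter clustered once more except for neutrophil-like and small clusters (Python 3.11.15, numpy 2.4.6, scipy 1.17.1, scanpy 1.11.5, leidenalg 0.10.2, scikit-learn 1.9.0). Clusters were named from at least 3 markers found in at least 20% of cells and 2-fold over the rest.

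Counts were summed per class and library, per 10000 UMIs, for at least 20 cells. Intervals are exact, at 95%. A gene was tested between days with at least 50 UMIs and called past 1.5-fold, and no p-value was computed. Named genes were the 10, the pathway list (39 of 41 measured) and the 10 most alike by correlation. The members and lists were chosen with earlier results of these data known. Intervals and limits cover counting error only.

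The automatic Scrublet threshold marked 158 barcodes on day 0 but 0 to 2 in the other libraries, so a fixed score of 0.25 was chosen after seeing this. High-scoring cells were kept in the main values and removed in an alternative. 9 clusters, holding 534 cells, had at least 30% high scores. Free RNA was taken from barcodes with at most 100 UMIs. The alternatives changed the mitochondrial limit, UMI minimum, doublets, resolution, depth, averaging and free RNA.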

Additional observations from a re-analysis of the deposited data

Results flagged for a closer look

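In the main values the summed level of the 10 genes moved in opposite directions in B-like and classical monocyte-like cells on 3 days, against day 0. This pair of classes was looked at after the folds had been seen, and the difference was not tested, since each day is 1 mouse. On day 3 the fold was 0.752 in B-like and 1.29 in classical monocyte-like cells, a ratio of 1.72. On day 6 the folds were 0.660 and 1.05, a ratio of 1.60. On day 9 they were 0.572 and 1.26, a ratio of 2.19. The opposite direction of day 6 depended on the setting. In thinned cells the day 6 folds were 0.747 in B-like and 0.983 in classical monocyte-like cells, both below day 0. The thinned folds stayed opposite on day 3, at 0.805 and 1.59, and on day 9, at 0.656 and 1.38. The makeup of both classes moved on the same days, with c7.1 at 10.5% of B-like cells on day 0 and 23.7% to 33.1% on days 3 to 9, and c3.2 at 4.62% of classical monocyte-like cells on day 0 and 13.9% on day 3. Within the B-like cluster c6.0 the folds of days 3 to 9 were 0.783 to 0.867. Within the classical monocyte-like clusters they were 0.455 to 0.752 in c3.2 but 1.30, 1.23 and 1.28 in c3.0, the one with the most cells.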

How the results depend on the processing

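No paired analysis was possible because each day is 1 mouse and no test was made. Monocyte-like here joins both monocyte classes, with a main level of 14.9 and a main day 12 fold of 0.879. Values are the summed level of the 10 genes per 10000 UMIs, and the cause of each change was not tested.

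With no mitochondrial limit the levels were 212 in B-like, 6.21 in pro/pre-B-like, 130 in conventional dendritic-like and 15.7 in monocyte-like cells, the fold of B-like over pro/pre-B-like was 34.1 and the monocyte-like day 12 fold was 0.940. With a limit of 3 median absolute deviations, which leaves fewer than 20 B-like cells on day 12 and so gives no B-like day 12 fold, they were 207, 6.43, 64.0 in plasmacytoid dendritic-like, 251 in conventional dendritic-like and 17.1 in monocyte-like cells, with a fold of 32.2. At 1000 UMIs or more they were 211.5 in B-like, 89.9 in conventional dendritic-like, 16.7 in monocyte-like and 1.86 in neutrophil-like cells, with day 12 folds of 0.885 in B-like and 0.676 in monocyte-like cells. At resolution 1.2 conventional dendritic-like cells had 216 and monocyte-like cells 16.4, with a day 12 fold of 0.812.

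Without high doublet scores the levels were 223.5 in B-like, 5.76 in pro/pre-B-like, 62.1 in plasmacytoid dendritic-like and 15.1 in monocyte-like cells, with a fold of 38.8 and a B-like day 12 fold of 0.883. Without doublet-rich clusters, an alternative chosen after seeing the data, they were 230.5 in B-like and 62.3 in plasmacytoid dendritic-like cells, with 39.7 and 0.963.

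Thinned to 1000 UMIs they were 248 in B-like, 8.36 in pro/pre-B-like, 65.9 in plasmacytoid dendritic-like, 18.9 in monocyte-like and 2.11 in neutrophil-like cells, with a fold of 29.7 and day 12 folds of 0.993 and 0.826. As means over cells they were 250.1, 8.57, 67.5, 18.7 and 2.27, with 88.2 in conventional dendritic-like cells, a fold of 29.2 and a reversed B-like day 12 fold of 1.04. With c6.0 alone, also chosen after seeing the data, the B-like level was 281, the fold 47.0 and the day 12 fold 1.02, reversed.

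With free RNA subtracted the levels were 208 in B-like, 0.665 in pro/pre-B-like, 54.4 in plasmacytoid dendritic-like, 93.7 in conventional dendritic-like, 8.28 in monocyte-like and 0 in neutrophil-like cells, with a fold of 313 and a reversed monocyte-like day 12 fold of 1.56. The estimated free share was 21.3% to 40.4%, and neutrophil-like cells held only 0.246 to 0.382 of the level it predicts, so the subtraction took away more than that class contained.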
